A study of Mus musculus with 25 samples.

Results

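The genes described here are Ifi202b and 8 other interferon-induced genes, Ifitm3, Bst2, Irf7, Ifit1, Ifit3, Isg15, Oasl2 and Usp18. They were taken by symbol from the count tables of a hippocampal RNA sequencing study, which list 24421 genes, and all 9 were found there and tested. The study compared mice heterozygous for a disrupted sodium channel gene, Scn1a+/-, a model of Dravet syndrome, with wild-type mice, on a strain that resists seizures and one that is prone to them. The resistant background was 129S6/SvEvTac (129S6) and the prone one was [129S6/SvEvTac x C57BL/6]F1 (F1), whose mice carry 1 set of chromosomes from each parent strain. All libraries were made from hippocampi pooled over mice. At postnatal day 24 (P24) the F1 groups were Scn1a+/- mice with seizures (3 libraries, each a pool of 3 to 4 mice), Scn1a+/- mice without seizures (2 libraries) and wild-type mice (3 libraries). The P24 129S6 groups were 3 libraries labelled Scn1a+/- and 3 labelled wild type. At postnatal day 14 (P14) there were 3 Scn1a+/- and 3 wild-type F1 libraries, and 3 Scn1a+/- and 2 wild-type 129S6 libraries, and each library outside the seizure group held 12 to 16 mice. The seizure group thus differed from its controls in the number of mice pooled as well as in seizures, and these cannot be told apart. The labels do not say when the seizures occurred relative to collection.

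Interferons are secreted proteins that bind cell-surface receptors and, through the JAK kinases, activate STAT transcription factors, which with IRF9 bind interferon-stimulated response elements in the promoters of antiviral genes. In the brain, microglia, astrocytes, endothelial cells and neurons can all carry out this response. Most genes of the list are classic targets of that pathway and are used together as its signature. Ifi202b belongs to the mouse Ifi200 (PYHIN) cluster on chromosome 1, codes for a DNA-binding protein that in mouse cells counteracts the DNA sensor Aim2, and is known for levels that differ widely between inbred mouse strains. The question asked of these data is whether Ifi202b moves with the other interferon-induced genes after seizures or apart from them, and whether it differs between the strains.

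The promoters of 4 members are shown: Ifi202b, the 2 members that passed the test after seizures (Ifitm3 and Bst2), and Isg15, a classic interferon target that did not. Each window runs from 250 bases before to 50 bases after the annotated start, 5′ to 3′ on the gene's own strand, from RefSeq on GRCm38.p6, the assembly of mm10. Capitals mark the core of the interferon-stimulated response element (ISRE), a pair of GAAA repeats with any 2 bases between them, searched on both strands.
Ifi202b: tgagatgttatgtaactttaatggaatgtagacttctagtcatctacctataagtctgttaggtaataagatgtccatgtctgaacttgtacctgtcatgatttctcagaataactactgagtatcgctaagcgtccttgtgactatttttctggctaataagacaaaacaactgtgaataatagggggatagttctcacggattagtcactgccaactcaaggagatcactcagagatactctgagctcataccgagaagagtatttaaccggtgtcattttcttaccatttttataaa
Ifitm3: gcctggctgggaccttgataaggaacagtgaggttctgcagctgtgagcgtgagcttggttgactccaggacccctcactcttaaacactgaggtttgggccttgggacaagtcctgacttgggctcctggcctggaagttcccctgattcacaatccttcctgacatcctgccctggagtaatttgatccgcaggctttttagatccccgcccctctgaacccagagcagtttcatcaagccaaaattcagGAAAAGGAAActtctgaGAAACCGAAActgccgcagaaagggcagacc
Bst2: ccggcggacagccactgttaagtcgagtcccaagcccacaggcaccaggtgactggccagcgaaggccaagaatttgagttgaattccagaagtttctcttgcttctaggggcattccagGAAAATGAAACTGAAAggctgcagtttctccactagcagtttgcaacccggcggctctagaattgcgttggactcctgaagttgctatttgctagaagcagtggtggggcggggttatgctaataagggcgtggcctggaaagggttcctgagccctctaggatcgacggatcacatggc
Isg15: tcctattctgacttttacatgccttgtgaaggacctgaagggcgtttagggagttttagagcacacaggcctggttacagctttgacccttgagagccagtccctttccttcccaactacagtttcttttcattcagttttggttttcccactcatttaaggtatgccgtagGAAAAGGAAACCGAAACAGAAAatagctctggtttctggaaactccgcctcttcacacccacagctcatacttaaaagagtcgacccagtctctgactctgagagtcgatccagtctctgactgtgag
The Ifi202b window is chr1:173982795-173983094 on the minus strand, and it held no ISRE core. Ifitm3 (chr7:141010695-141010994, minus strand) held 2 such cores, both just after the start. Bst2 (chr8:71537423-71537722, minus strand) held 2 overlapping cores and Isg15 (chr4:156200769-156201068, minus strand) held 3 overlapping ones. Of the other members, Ifit1 and Ifit3 had 2 cores each, and Irf7 and Oasl2 had none. Usp18 had no entry in the promoter table, so 8 of the 9 members were searched. Over all 32851 promoter windows of that length, 3.44% held the core. The shorter gamma-activated site core, TTCNNNGAA, was found in Ifi202b, starting at position -148 relative to the start, and also in Ifitm3 and Bst2, against 8.30% of all windows. A match says only that these letters are in the window. The reference sequence is that of the C57BL/6J strain, and the 129S6 sequence was not used here. All mice of the series carried 129S6 chromosomes. The lack of an ISRE core in the Ifi202b window therefore holds for the C57BL/6J sequence only.

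Levels are given as CPM, the deposited counts scaled to each library's effective size, and they were not divided by gene length, so they compare libraries and not genes. Total counts per library were 7436442 to 25520050. All 11 hippocampal neuron markers were present in every group. The seizure libraries differed from each other more than replicates of any other group did, with a chi-square per degree of freedom over genes of 18.3 to 40.2 between them and at most 8.59 elsewhere. Fitted with only the groups compared, 1615 genes were called against wild type, where the fit of all 9 groups called 3579. The targeted gene Scn1a was at 68.8 to 89.0 CPM in P24 F1 seizure libraries and 92.9 to 115 CPM in those without seizures, against 124 to 130 CPM in wild type. In P24 129S6 mice Scn1a went against the labels, with 135 to 144 CPM in libraries labelled Scn1a+/- and 109 to 111 CPM in those labelled wild type, and the names of these 6 deposited files give the opposite genotype to the titles. Strain and age comparisons average the genotypes and do not depend on this, while the sign of the P24 129S6 genotype comparison does. Nothing in the labels says that pools of a group came from separate litters or days, so a p-value here speaks only of how these pools vary, which may be technical.

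Ifi202b was high in the 3 seizure libraries and near the limit of detection in the other 22. It was at 4.76, 10.9 and 2.97 CPM in P24 F1 Scn1a+/- libraries with seizures (106, 215 and 61 counts), against 0.260 and 0.167 CPM without seizures (3 counts in each) and 0.134, 0.295 and 0.0458 CPM in wild type (3, 7 and 1 counts). Every seizure library stood above every other library of the series, of which the highest had 0.912 CPM, and the seizure libraries themselves spread widely. The exact (Clopper-Pearson) 95% intervals of the 3 seizure libraries did not overlap, at 3.90 to 5.76, 9.52 to 12.5 and 2.27 to 3.82 CPM, and such intervals cover counting error only. The log2 fold change was 5.20 ± 0.49 (SE) against wild type, rank 5 from the top among 15912 genes, and 4.87 ± 0.62 against Scn1a+/- without seizures, rank 6. Without the highest seizure library, replicate 2, these were 4.52 and 4.20. Ifi202b was singled out for this rise, so the values are a description with no test, and it passed the low-count filter mainly through the seizure libraries, since the cutoff of 0.677 CPM was exceeded in 4 libraries, 3 of them with seizures. In bulk tissue, more cells of a type and more RNA per cell cannot be told apart.

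**Figure D1:**
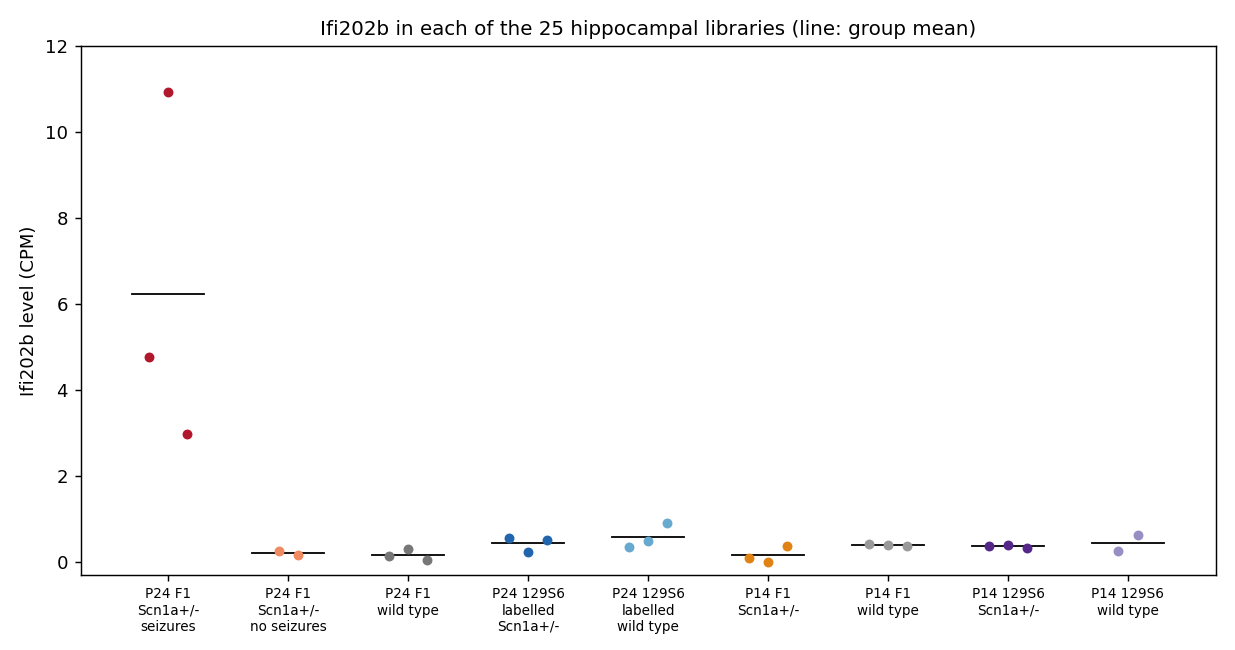
Level of Ifi202b in CPM (linear axis) in each of the 25 libraries, by group, with 1 point per library and a line at the group mean. The 3 seizure libraries sit at 2.97 to 10.9 CPM, and the other 22 at 0 to 0.912 CPM.

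Of the other members, the membrane protein genes Ifitm3 and Bst2 rose with seizures. Ifitm3, which codes for an endosomal protein that blocks the entry of enveloped viruses, was at 10.7, 11.5 and 8.43 CPM in P24 F1 Scn1a+/- libraries with seizures, against 3.20 and 5.27 CPM in those without seizures and 4.72, 4.00 and 4.26 CPM in wild type. The lowest seizure library was above every other library of the series, whose highest value was 5.66 CPM. The log2 fold change of Ifitm3 was 1.24 ± 0.17 against wild type (edgeR adjusted p = 2.09e-06) and 1.23 ± 0.21 against Scn1a+/- without seizures (edgeR adjusted p = 6.80e-05). Ifitm2, a neighbouring and closely related gene whose reads may be shared with Ifitm3, rose as well, at 7.01, 6.76 and 4.58 CPM with seizures, against 3.20 and 3.44 CPM without seizures and 4.32, 3.79 and 3.62 CPM in wild type (0.65 ± 0.18 against wild type, edgeR adjusted p = 0.00912). Its call was lost without seizure replicate 1 (adjusted p = 0.0609) and without wild-type replicate 3 (adjusted p = 0.0511). A fit of only the groups compared did not call Ifitm2 either (adjusted p = 0.0560).

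Bst2, also called tetherin, holds budding viruses at the cell surface. It was at 4.90, 5.39 and 4.48 CPM with seizures, against 2.77 and 3.16 CPM without seizures and 2.89, 3.03 and 3.34 CPM in wild type, so that the seizure libraries did not overlap the other P24 F1 libraries. The log2 fold change was 0.67 ± 0.23 against wild type (edgeR adjusted p = 0.0329) and 0.72 ± 0.28 against Scn1a+/- without seizures (edgeR adjusted p = 0.0783, not called). The call against wild type was lost in 5 of the 6 fits that leave out 1 library of these groups, with adjusted p from 0.0612 to 0.114 in those 5. It held only without seizure replicate 3.

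Irf7, the transcription factor that amplifies type I interferon production, did not pass the test. It was at 2.29, 4.32 and 2.14 CPM with seizures, against 1.65 and 2.50 CPM without seizures and 2.18, 1.35 and 1.56 CPM in wild type. Only seizure replicate 2, the library highest in Ifi202b, stood clearly above the rest, and replicate 3 lay within the wild-type range. The log2 fold change was 0.78 ± 0.30 against wild type (edgeR adjusted p = 0.0636) and 0.45 ± 0.35 against Scn1a+/- without seizures (edgeR adjusted p = 0.448). Across the fits that leave out 1 library, the adjusted p against wild type ran from 0.0230 to 0.450, and it was 0.0394 with no filter on low counts.

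The antiviral effectors Ifit1 and Ifit3, related proteins with tetratricopeptide repeats of which Ifit1 binds foreign RNA caps, did not pass the test after seizures. Ifit1 was at 1.53, 1.88 and 1.12 CPM with seizures, against 1.13 and 1.50 CPM without seizures and 1.65, 0.926 and 0.962 CPM in wild type, with the groups overlapping. Its log2 fold change was 0.35 ± 0.41 against wild type (edgeR adjusted p = 0.587). Ifit3 was at 2.88, 2.54 and 2.48 CPM with seizures, against 1.56 and 2.44 CPM without seizures and 2.40, 1.98 and 1.47 CPM in wild type. All 3 seizure libraries of Ifit3 lay above the other P24 F1 libraries, by a margin smaller than the spread within those groups, and the log2 fold change of 0.43 ± 0.30 did not pass (edgeR adjusted p = 0.330).

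Isg15, a ubiquitin-like protein attached to other proteins during the interferon response, and Usp18, the protease that removes it and dampens receptor signalling, did not pass either. Isg15 was at 2.25, 2.74 and 1.02 CPM with seizures, against 1.91 and 1.94 CPM without seizures and 1.38, 1.51 and 2.38 CPM in wild type (log2 fold change against wild type 0.19 ± 0.30, edgeR adjusted p = 0.701). The lowest and the highest of these 8 values of Isg15 were both seizure libraries. Usp18 was at 1.35, 0.610 and 0.487 CPM with seizures, against 1.47 and 0.777 CPM without seizures and 0.801, 0.631 and 0.458 CPM in wild type (0.38 ± 0.40 against wild type, edgeR adjusted p = 0.545, and -0.38 ± 0.45 against Scn1a+/- without seizures, edgeR adjusted p = 0.642). Oasl2, an oligoadenylate synthetase-like protein, was at 1.53, 2.03 and 2.83 CPM with seizures, against 1.65 and 1.67 CPM without seizures and 1.42, 1.77 and 1.65 CPM in wild type. One of its seizure libraries lay within the range of the others and 2 lay above it (0.39 ± 0.33 against wild type, edgeR adjusted p = 0.428).

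The 95% interval of the log2 fold change against wild type reached up to 0.80 for Isg15, 1.05 for Ifit3, 1.06 for Oasl2, 1.18 for Ifit1, 1.20 for Usp18 and 1.40 for Irf7. The interval for Ifitm3 was 0.88 to 1.59, and that for Ifi202b, given as a description, was 4.20 to 6.20. Counts of these genes were low, with 10 to 30 reads of Usp18 and 21 to 54 reads of Isg15 in the seizure libraries.

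**Figure D2:**
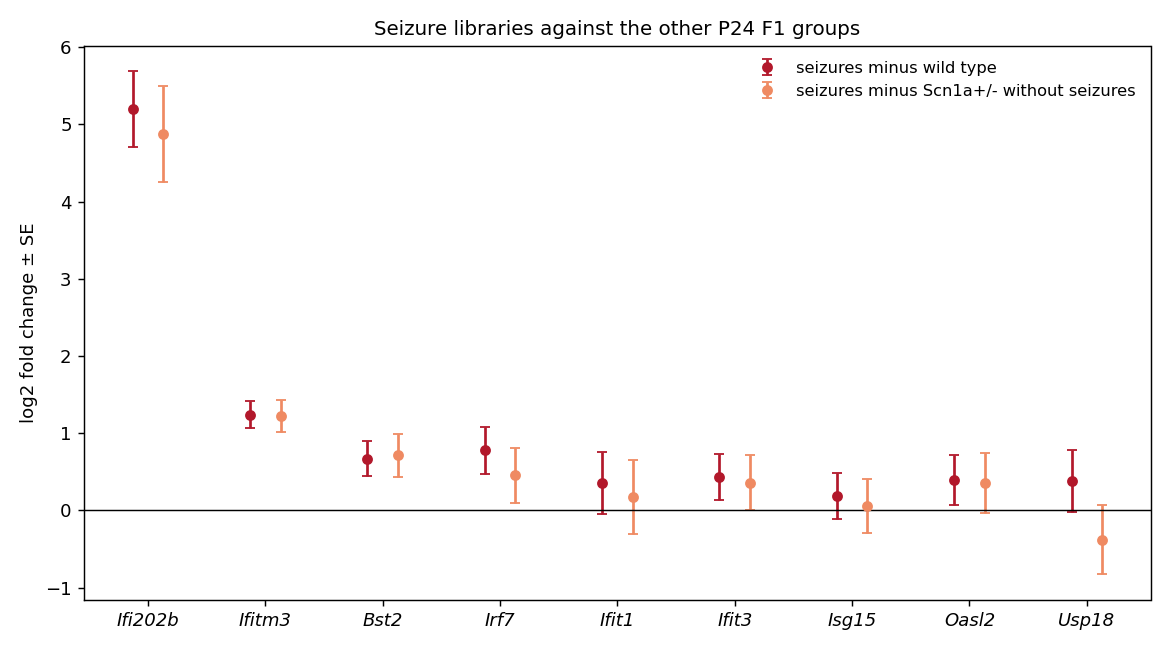
Log2 fold change (± SE) of the 9 genes in P24 F1 Scn1a+/- libraries with seizures, against wild type and against Scn1a+/- without seizures. Ifi202b lies at 5.20 and 4.87 and Ifitm3 at 1.24 and 1.23, and the other 7 genes lie between -0.38 and 0.78.

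**Figure D3:**
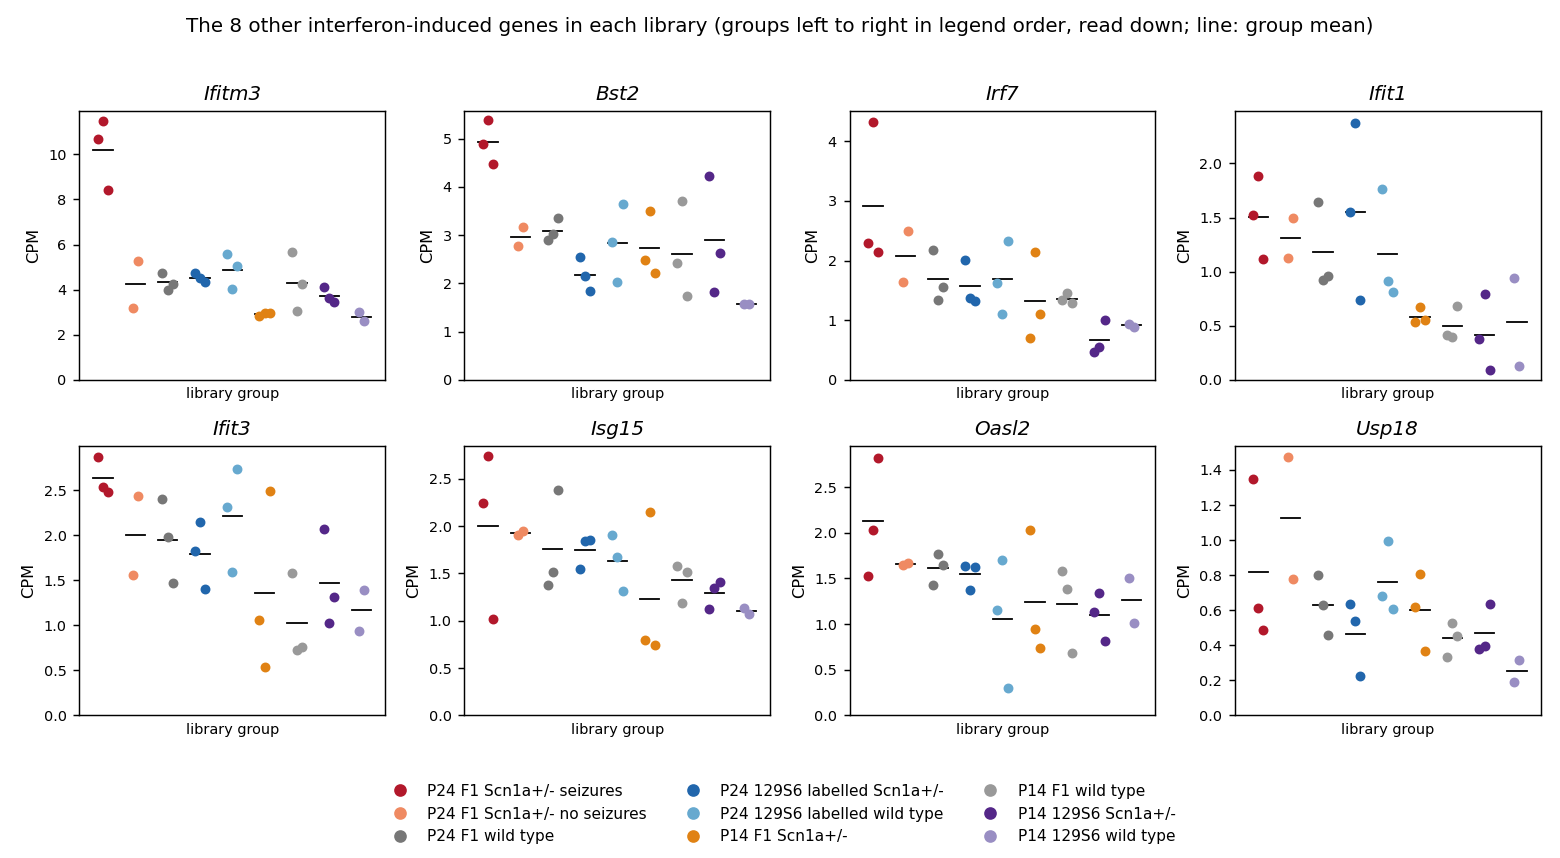
Level in CPM (linear axes that start at 0 and differ in range) of the 8 other genes in each of the 25 libraries, 1 point per library, with a line at the group mean. The seizure libraries stand clear of all other libraries for Ifitm3 (lowest 8.43 CPM, against at most 5.66 CPM). They lie only narrowly above them for Bst2 (lowest 4.48 CPM, against at most 4.23 CPM). They overlap the others for Irf7, Ifit1, Ifit3, Isg15, Oasl2 and Usp18.

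Against wild type, 2 of the 8 genes other than Ifi202b were called higher and 0 lower, where 12.4% of all 15912 tested genes were called higher, 10.1% lower and 22.5% in either direction. Against Scn1a+/- without seizures, 1 of the 8 was called higher and 0 lower, where the shares of all genes were 8.72% and 7%, and 15.7% in either direction. The median log2 fold change of the 8 genes was 0.41 against wild type, and 8 of 8 values were above 0, while the median of all genes was 0.01. Against Scn1a+/- without seizures the median was 0.36 with 7 of 8 above 0, against 0.01 for all genes. The 2 comparisons share the seizure libraries.

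The rest of the interferon pathway was counted over lists of its parts. No interferon gene rose to a measurable level: the 12 interferon genes listed, among them Ifnb1, Ifng and several Ifna genes, had 3 counts in all in the 3 seizure libraries (62877925 counts in total), against 0 counts without seizures and 1 in wild type. Over all 25 libraries these genes had 9 counts, 8 of the 12 had none, and none entered the test. A count of 0 allows up to 3 counts, so low or brief expression would not be seen at this depth.

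Over 6 lists of receptors, signalling proteins, sensors, other interferon-stimulated genes, interferon-inducible GTPases and MHC class I genes, 101 of 122 genes were tested. The rest had counts too low for the test. Among them, Cxcl10 had 57 of its 105 counts in the 3 seizure libraries (up to 1.78 CPM), Oasl1 17 of 41 and Mx1 22 of 79. Others had few there, such as Gbp8 with 4 of 70, H2-T22 with 4 of 33 and Oas1a with 11 of 70. In seizure libraries against wild type 6 of the 101 were called higher and 3 lower, or 5.94% and 2.97%. Both were below the shares of all genes, and the median log2 fold change of the 101 was 0.08. With 1 library left out, 4 to 8 were called higher. Against Scn1a+/- without seizures 4 were called higher and 2 lower, or 3.96% and 1.98%, and the median was 0.06. There 8.72% of all genes were called higher and 7% lower. Several of these genes were at low levels, such as Gbp2 (mean 1.67 CPM in P24 F1 wild type). Low counts make a call less likely, and the shares of all genes were not matched for level. The values below are against wild type. The 5 tested receptors gave 0 calls, the lowest p belonging to Ifnar2 (0.22 ± 0.12, edgeR adjusted p = 0.181) and then Il10rb (0.14 ± 0.13, edgeR adjusted p = 0.465). Of the MHC class I genes 0 of 15 tested were called, the immunoproteasome subunits Psmb10 (0.21 ± 0.09, edgeR adjusted p = 0.102) and Psmb8 (0.56 ± 0.26, edgeR adjusted p = 0.126) having the lowest p. Among 14 signalling genes the receptor-bound kinase Jak1 was called higher (0.32 ± 0.09, edgeR adjusted p = 0.0127), at 167, 168 and 242 CPM with seizures, against 159.5 and 130.4 CPM without seizures and 169, 147 and 146 CPM in wild type. Replicates 1 and 2 lay within the wild-type range, and without seizure replicate 3 the fold change was 0.11 and the call was lost (adjusted p = 0.254), as it was without wild-type replicate 2 (0.0747) or 3 (0.0757). Among 15 sensors and adaptors the nucleotide hydrolase Samhd1 was lower (-0.46 ± 0.10, edgeR adjusted p = 0.00114).

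Among 40 other interferon-stimulated genes 2 were higher and 1 lower after seizures, against wild type, beside 12.4% and 10.1% of all tested genes. Ifi30, a lysosomal thiol reductase of antigen processing, was at 5.26, 5.85 and 4.92 CPM with seizures, against 4.07 and 3.89 CPM without seizures and 3.25, 2.90 and 4.22 CPM in wild type (0.63 ± 0.17, edgeR adjusted p = 0.00605 against wild type, and 0.0652 without wild-type replicate 2). Ifitm2, given above, was the other. Against Scn1a+/- without seizures only Ifitm2 of the 40 was called higher, and 1 was called lower, beside 8.72% and 7% of all genes. Cmpk2, a mitochondrial nucleotide kinase that interferon induces, was lower, at 19.6, 12.5 and 16.5 CPM with seizures, against 29.96 and 22.3 CPM without seizures and 24.4, 23.9 and 21.8 CPM in wild type (-0.52 ± 0.12, edgeR adjusted p = 0.00143). Its seizure libraries lay below all other P24 F1 libraries.

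Of the interferon-inducible GTPases, 3 of 12 tested genes were called higher and 1 lower against wild type, with a list median of 0.38. Over all tested genes 12.4% were called higher and 10.1% lower, and the median was 0.01. Gbp2, a guanylate-binding protein that is also a reactive astrocyte gene, was at 3.19, 5.64 and 2.63 CPM with seizures, against 2.42 and 1.05 CPM without seizures and 1.56, 1.81 and 1.65 CPM in wild type (1.18 ± 0.30, edgeR adjusted p = 0.00344). Gbp3 was at 6.97, 8.54 and 6.72 CPM with seizures, against 4.42 and 4.77 CPM without seizures and 4.45, 3.79 and 4.12 CPM in wild type (0.84 ± 0.17, edgeR adjusted p = 0.000371). Irgm1, an immunity-related GTPase, was at 9.35, 16.0 and 9.74 CPM with seizures, against 7.71 and 8.94 CPM without seizures and 7.57, 6.82 and 6.87 CPM in wild type (0.72 ± 0.18, edgeR adjusted p = 0.00293). All 3 had their highest value in seizure replicate 2, and without it the calls of Gbp2 and Irgm1 against wild type were lost (adjusted p = 0.0722 and 0.0737). Iigp1, another immunity-related GTPase, was lower, at 1.57, 1.37 and 1.17 CPM with seizures, against 1.82 and 2.55 CPM without seizures and 2.58, 2.23 and 3.25 CPM in wild type (-0.96 ± 0.28, edgeR adjusted p = 0.0105, and 0.0679 without wild-type replicate 3). Against Scn1a+/- without seizures 2 of the 12 were called higher and 0 lower, beside 8.72% and 7% of all genes. These were Gbp2 (log2 fold change 1.20) and Gbp3 (0.68). Both calls were lost without seizure replicate 2 (edgeR adjusted p = 0.135 and 0.0680). Irgm1 (0.47) and Iigp1 were not called in that comparison.

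**Figure D4:**
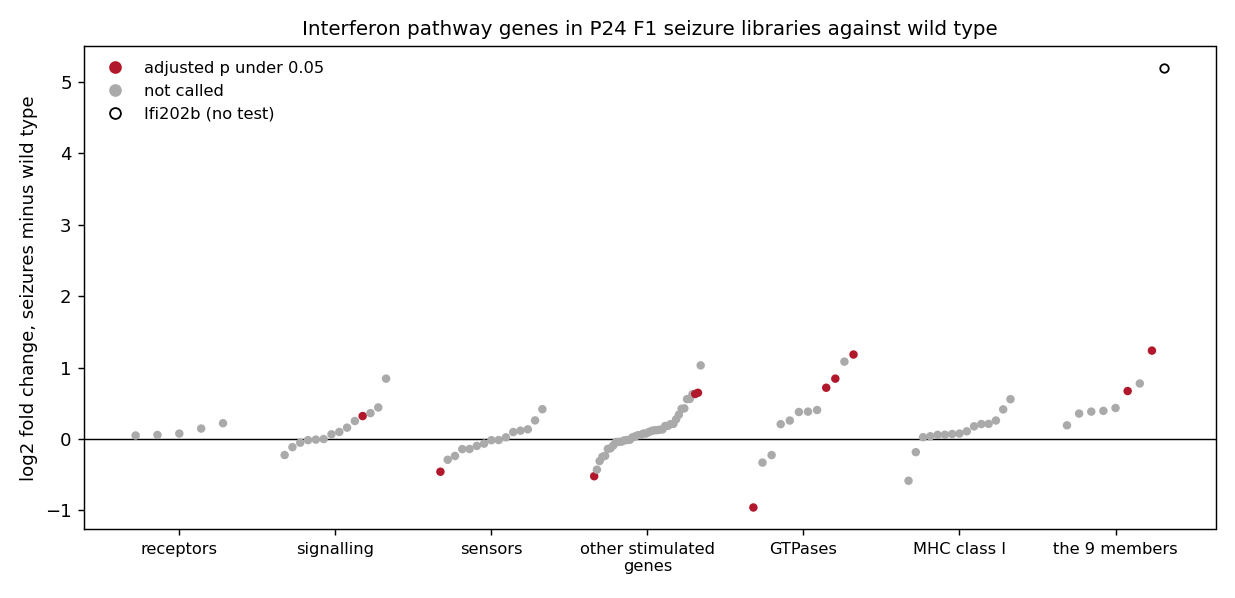
Log2 fold change of each tested gene in P24 F1 Scn1a+/- libraries with seizures minus wild type, by list, each point a gene, with genes in order of fold change within a list. Of the 101 tested genes of the 6 pathway lists, 6 called genes lie above 0 and 3 below, and Ifi202b (open circle, 5.20) lies above every other point.

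The neighbours of Ifi202b were read next, since the Ifi200 genes lie side by side. Of the cluster list 11 genes were in the files and 4 were tested, besides Ifi202b (chr1:173962569-173982844). Ifi203 ends 19.7 kb from Ifi202b and was the only one of the 4 called against wild type. It was at 12.1, 10.9 and 6.38 CPM with seizures, against 5.11 and 3.89 CPM without seizures and 4.36, 4.63 and 5.22 CPM in wild type, with no overlap (1.05 ± 0.20 against wild type, edgeR adjusted p = 0.000162, and 1.15 ± 0.24 against Scn1a+/- without seizures, edgeR adjusted p = 0.000948). The second call was lost without replicate 2 of the group without seizures (adjusted p = 0.0677). The 2 seizure libraries in which Ifi203 was highest were also the 2 in which Ifi202b was highest, in the other order. Genes of the cluster are close copies of each other, and how the authors' counting treated reads shared between them is not given in the sources used here.

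Mndal, another member of the cluster, was at 2.70, 2.03 and 2.19 CPM with seizures, against 2.68 and 2.00 CPM without seizures and 2.98, 2.15 and 2.98 CPM in wild type (-0.22 ± 0.24, edgeR adjusted p = 0.569). Aim2, the DNA sensor, was at 4.18, 3.30 and 2.63 CPM with seizures, against 5.37 and 5.33 CPM without seizures and 3.65, 4.00 and 3.89 CPM in wild type. It was lower with seizures than in Scn1a+/- without seizures (-0.66 ± 0.22, edgeR adjusted p = 0.0407), a call lost in 4 of 5 fits that leave out 1 library (adjusted p 0.0710 to 0.164) and in DESeq2 (adjusted p = 0.0504), and was not called against wild type (-0.19 ± 0.20, edgeR adjusted p = 0.554). Ifi204 stayed below 1 CPM in every library (-0.25 ± 0.45 against wild type, edgeR adjusted p = 0.741). The 7 cluster genes that were in the files but not tested reached at most 0.846 CPM.

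**Figure D5:**
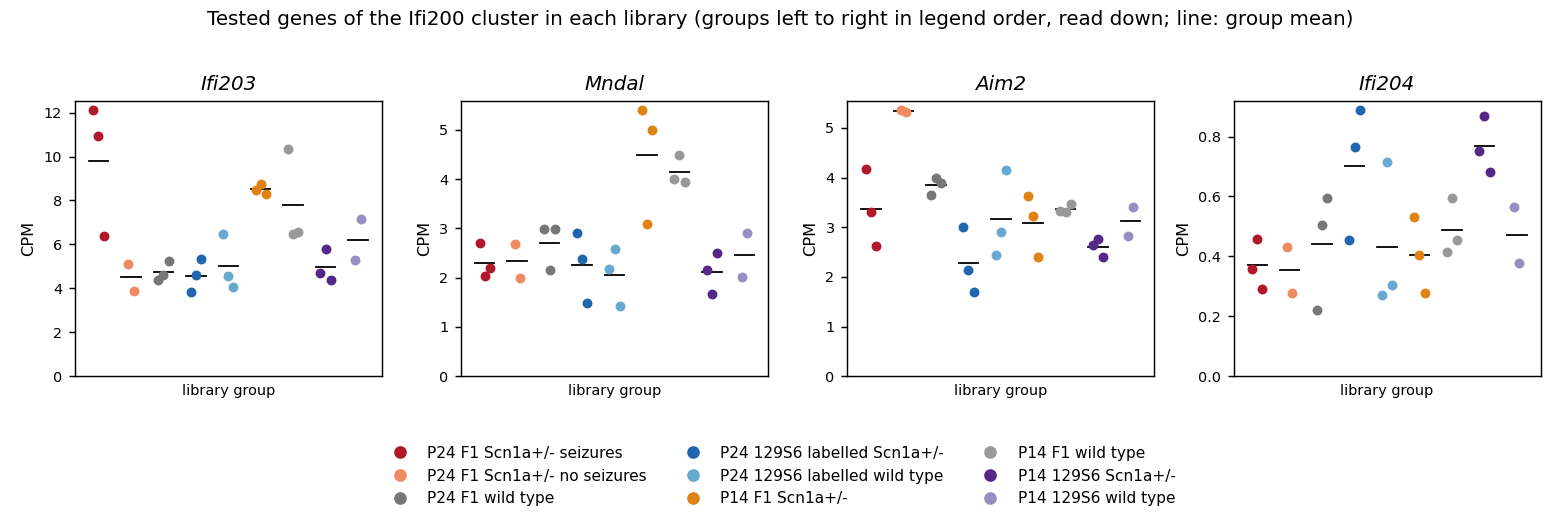
Level in CPM (linear axes from 0, differing in range) of the 4 tested genes of the Ifi200 cluster other than Ifi202b, 1 point per library, with a line at the group mean. Ifi203 is high in the seizure libraries (6.38 to 12.1 CPM) and in the P14 F1 libraries (6.48 to 10.3 CPM), and the group means of Mndal are highest in P14 F1.

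Markers of the cell types that could carry these genes moved as follows in the seizure libraries. Calls below are against wild type unless another group is named. Against wild type 12.4% of all tested genes were called higher and 10.1% lower. The 16 microglia markers summed to 615 to 793 CPM with seizures, against 693 to 739 CPM without seizures and 618 to 667 CPM in wild type, and 5 of 16 were called higher and 0 lower against wild type, C1qb first (0.63 ± 0.10, edgeR adjusted p = 8.33e-06). The 17 infiltrating leukocyte markers summed to 20.6 to 32.9 CPM with seizures, against 31.4 to 32.1 CPM without seizures and 27.0 to 28.9 CPM in wild type. Of these 17, only 4 were abundant enough to test and 0 were called, and 3 were at 0 in all seizure libraries. The lowest p belonged to S100a9 (1.34 ± 0.50, edgeR adjusted p = 0.0504) and then Ptprc (0.44 ± 0.20, edgeR adjusted p = 0.113). Siglech is in this list and in the microglia list, so the 2 sums share a gene. The 18 endothelial and pericyte markers summed to 316 to 385 CPM with seizures, against 355 to 371 CPM without seizures and 346 to 367 CPM in wild type, with 3 higher and 2 lower. The 22 reactive astrocyte genes summed to 2983 to 3975 CPM with seizures, against 990 to 1082 CPM without seizures and 777 to 847 CPM in wild type, and 10 of 19 tested were higher and 2 lower. The 12 leptomeningeal and fibroblast markers summed to 243 to 279 CPM with seizures, against 250 to 260 CPM without seizures and 272 to 279 CPM in wild type, with 3 higher and 3 lower. Of 11 hippocampal neuron markers 3 were higher and 4 lower, and of 6 red blood cell genes 2 were tested and 0 called. Against Scn1a+/- without seizures, where 8.72% of all genes were higher and 7% lower, 2 microglia markers were higher and 0 lower. The same counts were 0 and 1 for endothelial and pericyte markers, 9 and 0 for reactive astrocyte genes, 4 and 3 for leptomeningeal markers and 3 and 2 for neuron markers. The microglia median was -0.09 there and 0.10 against wild type. It was 0.16 for Scn1a+/- without seizures minus wild type. Whether any of these cell types carries the Ifi202b or Ifitm3 reads was not tested.

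Among the genes whose log2 CPM followed Ifi202b most closely over the 25 libraries were Ensa (Pearson r = 0.906), which codes for a phosphatase inhibitor, Pak7 (0.886), a kinase, Cd44 (0.875), a hyaluronan receptor, and Lman2 (0.872), a lectin of the secretory pathway. Of the members, Ifitm3 was highest at 0.777, then Ifit3 at 0.494, Bst2 at 0.459, Irf7 at 0.430, Ifit1 at 0.210, Isg15 at 0.177, Oasl2 at 0.176 and Usp18 at 0.0916, and Ifi203 was at 0.412. These are descriptions over libraries of 9 groups, in which the seizure libraries weigh most. Over the 22 libraries without seizures the coefficient was 0.193 for Ifitm3 and 0.316 for Ifit3, between -0.364 (Oasl2) and -0.163 (Irf7) for the 6 remaining members, and -0.210 for Ifi203, where Ifi202b had 0 to 12 counts per library. In the same 22 libraries it was 0.579 for Ensa, 0.514 for Pak7, 0.496 for Lman2 and 0.187 for Cd44.

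Between the strains, Ifi202b was lower in F1 than in 129S6 mice at P24 by values that overlapped. It was at 0.260, 0.167, 0.134, 0.295 and 0.0458 CPM in the 5 F1 libraries without seizures (0.180 ± 0.0998, SD), against 0.230 to 0.912 CPM with a median of 0.497 in the 6 129S6 libraries (0.504 ± 0.233, SD). These rest on 17 counts in F1 and 42 in 129S6. The log2 fold change, F1 minus 129S6, was -1.36 ± 0.57, a description with no test since the gene was chosen for it, and between -1.74 and -1.14 with 1 library left out. At P14 Ifi202b was at 0 to 0.416 CPM with a median of 0.374 in 6 F1 libraries (21 counts), against 0.376, 0.395, 0.318, 0.251 and 0.632 CPM in 5 129S6 libraries (30 counts), a log2 fold change of -0.60 ± 0.61. Single libraries move that value by over 1.5 times: it was -1.36 without Scn1a+/- replicate 3 of P14 F1, -0.39 without replicate 2 of the same group, and -0.20 without wild-type replicate 2 of P14 129S6. The P14 F1 Scn1a+/- library with 0 counts allows up to 0.404 CPM. Thus the 129S6 libraries of Ifi202b overlapped the F1 libraries at both ages, and all lay below the lowest seizure library.

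None of the 8 other members passed the test between the strains in edgeR or DESeq2. At P24, 0 of 8 were called, with 0 at an unadjusted p under 0.05 and 0 called by DESeq2, where edgeR called 3.46% of all genes higher in F1, 2.87% lower and 6.33% in either direction, and at P14, 0 of 8 were called, with 1 (Irf7) at an unadjusted p under 0.05 and 0 by DESeq2, where 2.04% of all genes were called higher in F1, 1.66% lower and 3.7% in either direction. Their log2 fold changes, F1 minus 129S6, ran from -0.10 to 0.45 at P24 and from -0.11 to 0.67 at P14. Within the 6 pathway lists 3 of 101 genes were higher and 3 lower in F1 at P24, so strain differences there were in single genes. Xaf1, an apoptosis regulator that interferon induces, was lower in F1 (-0.74 ± 0.13, edgeR adjusted p = 0.000157). The receptor genes Ifngr1 (-0.29 ± 0.08, edgeR adjusted p = 0.0169) and Ifnar1 (-0.17 ± 0.05, edgeR adjusted p = 0.0378) were lower too. Of 16 microglia markers, 6 were higher and 0 lower in F1, and their part in these differences was not tested. Irgm2 (0.81 ± 0.21, edgeR adjusted p = 0.0166), the DNA sensor gene Mb21d1 (0.70 ± 0.21, edgeR adjusted p = 0.0384) and Slfn8 (1.32 ± 0.38, edgeR adjusted p = 0.0336) were higher in F1. Of these 6 calls that of Xaf1 held in every fit that leaves out 1 library. The others were lost in 10 of 11 such fits for Ifnar1, 7 for Mb21d1, 6 for Slfn8, 5 for Ifngr1 and 2 for Irgm2, with adjusted p of up to 0.442 for Ifnar1. With no library left out, Ifnar1 was not called with RLE factors (adjusted p = 0.0502) and Slfn8 was not called by DESeq2 (adjusted p = 0.0698).

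Of the 4 tested cluster genes besides Ifi202b, Aim2 was called between the strains at P24 and Mndal at P14, both higher in F1. Aim2 was higher in F1 at P24, at 3.65 to 5.37 CPM in the 5 F1 libraries without seizures, against 1.70 to 4.15 CPM in the 6 129S6 libraries (0.78 ± 0.16, edgeR adjusted p = 0.00192). Mndal was higher in F1 at P14, at 3.09 to 5.40 CPM in 6 F1 libraries, against 1.66 to 2.91 CPM in 5 129S6 libraries with no overlap (0.92 ± 0.19, edgeR adjusted p = 0.00279). At P24 the strains overlapped for Mndal (0.18 ± 0.20, edgeR adjusted p = 0.674), and the change of the strain difference with age was not called (edgeR adjusted p = 0.545). Ifi203 was at 6.48 to 10.3 CPM in P14 F1 libraries, against 4.40 to 7.14 CPM in P14 129S6 libraries (0.55 ± 0.17, edgeR adjusted p = 0.0549, not called), and its P24 difference was -0.08 ± 0.17 (edgeR adjusted p = 0.856). Ifi204 averaged 0.446 CPM in F1 and 0.649 CPM in 129S6 at P14, and 0.407 CPM in F1 and 0.566 CPM in 129S6 at P24, with neither difference called (-0.41 ± 0.38, edgeR adjusted p = 0.742, and -0.59 ± 0.36, edgeR adjusted p = 0.381).

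With age, some of the 8 other members rose between P14 and P24. Ifi202b, at 0 to 12 counts per library, is given as a description, since it entered the test mainly through the seizure libraries. It had a log2 fold change, P24 minus P14, of -0.50 ± 0.70 in F1 and 0.26 ± 0.50 in 129S6. In F1, 2 of the 8 others were called higher and 0 lower, where 19% of all genes were called higher, 19.4% lower and 38.4% in either direction, and in 129S6 3 of 8 were higher and 0 lower, where 17.3% were higher, 17.1% lower and 34.3% in either direction. All 8 had a positive log2 fold change in each strain, with medians of 0.53 in F1 and 0.56 in 129S6, against 0.00 and 0.01 for all genes.

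Ifit1 rose with age in both strains. It was at 1.13, 1.50, 1.65, 0.926 and 0.962 CPM in P24 F1 libraries without seizures, against 0.397 to 0.681 CPM with a median of 0.542 in 6 P14 F1 libraries, with no overlap (1.22 ± 0.41, edgeR adjusted p = 0.0171). In 129S6 it was at 0.739 to 2.37 CPM with a median of 1.23 in 6 P24 libraries, against 0.376, 0.791, 0.0907, 0.942 and 0.126 CPM in P14 libraries (1.58 ± 0.41, edgeR adjusted p = 0.00293). The P14 values rest on 2 to 15 counts per library. Without replicate 2 of P24 F1 Scn1a+/- the call in F1 was lost (adjusted p = 0.0979).

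Ifit3 rose in F1 (0.74 ± 0.28, edgeR adjusted p = 0.0360), at 1.47 to 2.44 CPM in P24 libraries without seizures, against 0.538 to 2.49 CPM in P14 libraries, and it was not called in 129S6 (0.59 ± 0.28, edgeR adjusted p = 0.102). The call in F1 was lost in 7 of 11 fits that leave out 1 library, with adjusted p from 0.0540 to 0.253 in those 7. Irf7 rose in 129S6, at 1.11 to 2.33 CPM at P24, against 0.470 to 0.998 CPM at P14 with no overlap (0.94 ± 0.30, edgeR adjusted p = 0.0159), and was not called in F1 (0.54 ± 0.28, edgeR adjusted p = 0.126). Ifitm3 rose in 129S6, at 4.01 to 5.58 CPM at P24, against 2.59 to 4.14 CPM at P14 (0.53 ± 0.16, edgeR adjusted p = 0.00942), and was not called in F1 (0.30 ± 0.16, edgeR adjusted p = 0.144). Without wild-type replicate 2 of P14 129S6 the calls of Irf7 and Ifitm3 were lost (adjusted p = 0.0558 for Irf7 and 0.0578 for Ifitm3). The age change did not differ by a called amount between the strains for any of the 8 other members, the lowest adjusted p being 0.837, with 0 of 8 at an unadjusted p under 0.05 and 0 by DESeq2, where edgeR called 0.00628% of all genes.

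The pathway lists were counted with age in the same way. In F1 21 of the 101 tested genes were called higher at P24 and 4 lower, or 20.8% and 3.96%, and in 129S6 16 were higher and 9 lower, or 15.8% and 8.91%, beside 19% and 19.4% of all genes in F1 and 17.3% and 17.1% in 129S6. In the cluster around Ifi202b, Ifi203 fell with age in F1 (-0.82 ± 0.17, edgeR adjusted p = 0.000196), as did Mndal (-0.81 ± 0.19, edgeR adjusted p = 0.000999), and Aim2 rose (0.49 ± 0.16, edgeR adjusted p = 0.0158, and 0.0587 without Scn1a+/- replicate 3 of P14 F1). None of these 3 was called with age in 129S6. The test of the difference between the strains did not call them either (edgeR adjusted p = 0.545 for Ifi203 and Mndal and 0.566 for Aim2).

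None of the 8 other members was called between Scn1a genotypes without seizures. Ifi202b is given there as a description, since its counts were low. In P24 F1 mice without seizures, Ifi202b was at 0.260 and 0.167 CPM in Scn1a+/- libraries, against 0.134, 0.295 and 0.0458 CPM in wild type (log2 fold change 0.32 ± 0.99). In the 4 genotype comparisons edgeR called 0% of all genes, while 391 to 889 genes had an unadjusted p under 0.05. Among the 8 other members the unadjusted p was under 0.05 for Ifitm3 in P14 F1 (-0.55 ± 0.24) and Bst2 in P14 129S6 (0.84 ± 0.33), with edgeR adjusted p of 0.994 and 1, and DESeq2 called 0 of 8 in each comparison. In P24 129S6, where the labels are in doubt, Ifi202b was at 0.546, 0.230 and 0.517 CPM in libraries labelled Scn1a+/-, against 0.340, 0.477 and 0.912 CPM in those labelled wild type (log2 fold change -0.31 ± 0.66).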

How the data were processed

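Hippocampal RNA from pools of mice was sequenced in 25 libraries, and the authors deposited raw counts per gene for each. RNA came from TRIzol extraction and libraries from a TruSeq kit without strand marking, per the labels' protocols. Tools listed in the submitters' processing notes are TopHat2 2.1.0, HTSeq 0.6.1p1 and CASAVA, with build mm10. Neither annotation nor strand setting was stated, so overlapping and antisense genes cannot be told apart. Groups follow the titles.

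One edgeR 4.0.16 quasi-likelihood fit (R 4.3.3) covered all 9 groups, with TMM scaling. After removal of genes with low counts (minimum 10), 15912 genes stayed. Calls required an adjusted p (Benjamini-Hochberg, all tested genes) under 0.05. Each SE was derived from the F statistic. The common coefficient of variation between libraries was 7.57%. Intervals used scipy 1.17.1. Alternatives were DESeq2 1.42.0, RLE factors, 2 other filters, smaller fits and omission of single libraries. The fit was tested on simulated data that gave every group the same spread, so that test does not cover the wider spread of the seizure libraries.

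Members and lists were chosen with earlier results of these data known. Named genes are all members, measured Ifi200 genes, the 5 genes most correlated with Ifi202b (1 is not reported here), and from each list up to 4 called after seizures and up to 3 between strains at P24 (for lists with no call, the 2 genes of lowest p).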

Additional observations from a re-analysis of the deposited data

Results flagged for a closer look

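For Ifitm3 at P14, the values of Scn1a+/- and wild-type libraries lay in opposite order in the 2 strains, though neither genotype difference passed the test (edgeR adjusted p = 0.994 in F1 and 1 in 129S6). In F1 mice it was at 2.83, 2.96 and 2.96 CPM in Scn1a+/- libraries, all below the 5.66, 3.04 and 4.23 CPM of wild type. In 129S6 mice it was at 4.14, 3.64 and 3.45 CPM in Scn1a+/- libraries, all above the 3.01 and 2.59 CPM of wild type. The difference of the genotype effects, F1 minus 129S6, was -0.946 on the log2 scale (SE 0.34, unadjusted p = 0.00939, edgeR adjusted p = 1.00), and edgeR called 0 of all genes for this difference.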

How the results depend on the processing

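No paired analysis was possible because the titles number the libraries through the whole series, so the groups share no replicate numbers. DESeq2 and RLE factors changed no call among the members. Outside the fits with 1 library left out, 412 of 430 values were rated unchanged and 0 reversed. Fold changes were rated by direction and side of the threshold, and that of Ifi202b by its shift against the spread between replicates. Counts of called genes were rated unchanged after small moves, such as from 3 to 2 members with age in 129S6. With a minimum count of 30, Ifit1 was no longer tested, and 1 member was higher with age in F1 and 2 in 129S6. Fits of only the groups compared called 1615 genes (seizures against wild type) and 633 (against Scn1a+/- without seizures), where the full fits called 3579 and 2502, and the comparison with Scn1a+/- without seizures then called 0 pathway genes. Jak1, Ifi30 and Ifitm2 were not called against wild type in such fits (adjusted p = 0.185 for Jak1, 0.0510 for Ifi30 and 0.0560 for Ifitm2). Aim2 was not called there against Scn1a+/- without seizures (adjusted p = 0.198). With P24 F1 Scn1a+/- replicate 2 left out, that comparison called 1519 genes. Without the seizure libraries, Ifi202b failed the low-count filter and had no strain value.

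With 1 library left out, 1 to 3 of the 8 other members were higher in seizure libraries than in wild type, 0 to 3 with age in F1 and 1 to 3 with age in 129S6. The log2 fold change of Ifi202b ran from 4.52 to 5.97 against wild type, from 4.20 to 5.20 against Scn1a+/- without seizures, and from -1.36 to -0.20 between strains at P14. Against wild type, Usp18 ran from -0.21 to 0.63 and Isg15 from -0.090 to 0.49. Against Scn1a+/- without seizures, Isg15 ran from -0.22 to 0.36 and was -0.05 without seizure replicate 1, Ifit1 ran from -0.0095 to 0.41 and was -0.0091 without seizure replicate 2, and Usp18 ran from -0.98 to 0.066. The causes were not tested. Low counts, 0 to 12 of Ifi202b in each library without seizures, limit its strain comparison.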
